A study of Mus musculus with 4 samples.

Results

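The 10 mature miRNA described here are the 5p and 3p arms of 5 hairpins, miR-149, miR-330, miR-339, miR-423 and miR-744, among 1966 miRNA listed in the count tables. The hairpins were chosen because an arm of each was higher in TgAD than in WT cortical neurons in these same libraries. The differences between genotypes are therefore given as a description. No p-value is printed for the arms in this contrast, and where an arm is said to be past the cutoffs, that call comes from the contrast it was chosen on and supports nothing. All 10 arms were listed, and 9 of them passed the filter on low counts. The exception was miR-149-3p, with at most 7 reads in any library.

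Small RNA was sequenced from primary cortical neurons that were dissected from mouse embryos at E16.5 (embryonic age as labelled) and kept for 5 days in vitro, in serum-free medium after plating, with 2 libraries from WT and 2 from APP/PS1 mutant (TgAD) embryos. TgAD mice carry 2 transgenes of familial Alzheimer disease, APPswe (a mouse/human hybrid of APP) and PSEN1dE9 (human presenilin 1 with a deletion). A prion protein promoter from the mouse drives them, mainly in central neurons. In the study's methods each embryo was cultured on its own and genotyped afterwards, and the libraries are called biological replicates. Whether cultures were pooled for a library is not given in the sources used here. The labels do not say whether libraries with the same number came from 1 litter. Reads counted on miRNA ranged from 2070204 to 4811010 per library, and the 10 arms took 0.335% to 0.378% of them in WT and 0.638% to 0.782% in TgAD libraries.

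A miRNA hairpin is cut from a longer transcript by Drosha and then by Dicer, which leaves a duplex of a 5p and a 3p strand. One strand, the guide, is loaded into an Argonaute protein and pairs with target mRNA through its seed, bases 2 to 8. The other strand, the passenger, is mostly degraded. Both strands come from the same transcript, so the ratio of the arms within a library does not depend on transcription or on how the library is scaled. In some hairpins either strand can serve as guide.

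The mature sequences, from RefSeq on GRCm38.p6, are shown because the seed and the base composition of each arm bear on the results. Capitals mark the seed.

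mmu-miR-149-5p: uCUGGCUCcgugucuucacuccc
mmu-miR-149-3p: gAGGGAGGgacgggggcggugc
mmu-miR-330-5p: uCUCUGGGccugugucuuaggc
mmu-miR-330-3p: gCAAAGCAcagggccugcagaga
mmu-miR-339-5p: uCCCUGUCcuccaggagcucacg
mmu-miR-339-3p: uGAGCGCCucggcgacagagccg
mmu-miR-423-5p: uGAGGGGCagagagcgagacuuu
mmu-miR-423-3p: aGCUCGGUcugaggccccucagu
mmu-miR-744-5p: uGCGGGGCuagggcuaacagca
mmu-miR-744-3p: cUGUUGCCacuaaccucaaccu

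No 2 of the 10 arms share a seed. Each arm lies at 1 annotated locus, no run of 18 bases of any arm occurs in the hairpin of another gene in the RefSeq table, and no other miRNA hairpin overlaps them, so their reads have a single annotated source. All 5 hairpins lie on the sense strand of a protein-coding host gene in GENCODE M21, an annotation of GRCm38. Mir149 (chr1:92850378-92850443, plus strand) lies in intron 1 of Gpc1, which encodes a heparan sulfate proteoglycan of the cell surface. Mir330 (chr7:19181465-19181562, plus strand) lies in intron 1 of 4 of the 5 protein-coding transcripts of Eml2, a microtubule-associated protein, and in intron 4 of the other. Mir339 (chr5:139369650-139369745, minus strand) lies in intron 2 of 3110082I17Rik. Mir423 (chr11:77078064-77078172, minus strand) lies in intron 1 of Nsrp1, which encodes a splicing regulatory protein. Mir744 (chr11:65734733-65734832, minus strand) lies in an intron of Map2k4, a kinase of the JNK pathway. Host transcripts were not measured in these libraries.

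The names of the libraries differ between the deposited files, and this touches every difference between genotypes below. A second table of normalized values lists 674 miRNA. Its column WT_1 holds exactly the reads of the count table labelled TgAD library 1, for 674 of 674 miRNA. In the same way its column WT_2 holds the reads of WT library 1 and its column TR_1 those of TgAD library 2. The column TR_2 matches none of the 4 count tables, with at most 4.45% of its values equal to those of any of them. No column holds the reads of WT library 2. Columns taken by name thus set TgAD library 1 and WT library 1 against TgAD library 2 and the library of TR_2. The genotypes below follow the sample labels of the count tables. With the columns of the normalized table taken by name instead, 0 of 480 tested miRNA were past the cutoffs defined below (54 had an unadjusted p under 0.05 in edgeR), and 0 of the 9 tested arms. With TgAD library 1 left out of the count tables, 5 of the 9 arms were past them. Which naming is right was not tested.

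Levels are given in CPM, reads relative to library size in the usual counts-per-million unit, after scaling of the libraries by edgeR's TMM method. A count of 3 reads, taken as the floor of detection, corresponds to 0.746 to 1.28 CPM, which covers counting error only. The cutoffs are those of the study, an absolute log2 fold change above 0.6 together with an adjusted p below 0.1, here from the quasi-likelihood test of edgeR with Benjamini-Hochberg adjustment across the 496 miRNA that passed the filter. There are 2 libraries per genotype, so each SD rests on 2 values per group. The standard errors come from the edgeR fit, which also draws on the dispersion of the other tested miRNA. They are not the spread of those 2 values.

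At these cutoffs 6 of the 9 tested arms were higher in TgAD neurons, 0 were lower and 3 were not past them, against 15.7% of all tested miRNA called higher and 17.3% called lower. The hairpins were picked on this contrast, so nothing is read from that count. The median log2 fold change was 1.22 over the 9 arms and 0.032 over all 496 tested miRNA. In 6 of the 9 arms both TgAD libraries lay above both WT libraries, as in 30.6% of all tested miRNA. Of the arms past the cutoffs miR-339-3p was nearest to them, at 1.02. Of those not past them miR-744-3p was nearest in size, at -0.48, and miR-423-5p was the nearest with a positive value, at 0.045.

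miR-149-5p, the guide strand of its hairpin, had read counts of 3874 and 3975 in WT against 11219 and 15562 in TgAD neurons. In CPM these were 1649 and 1365 in WT against 4089 and 3869.7 in TgAD. Both TgAD libraries stood well above both WT libraries. The mean moved from 1507 ± 201 to 3979 ± 155 CPM (SD, n = 2 each). This was a 2.64-fold difference, or 1.40 on the log2 scale (standard error 0.20). By mean level miR-149-5p ranked 62 among the 1966 listed miRNA in WT neurons and 29 in TgAD neurons. Its passenger, miR-149-3p, had 2 and 0 reads in WT and 7 and 6 in TgAD libraries. In WT it was at or under the floor in both libraries, and no fold change is given for it.

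miR-330-5p had read counts of 853 and 1029 in WT against 3325 and 4296 in TgAD neurons. Its level was 363 and 353 CPM in WT and 1212 and 1068 CPM in TgAD, groups that lay far apart with little spread within WT. The log2 fold change was 1.67 (standard error 0.19), or 3.18-fold. The opposite arm, miR-330-3p, had 147 and 290 reads in WT and 541 and 731 in TgAD libraries, or 62.6 and 99.6 CPM against 197 and 182 CPM. Here the groups also did not overlap, but the WT libraries differed more from each other than the TgAD libraries did. Its log2 fold change was 1.22 (standard error 0.28), and 0.94 without WT library 1 against 1.58 without WT library 2. miR-330 was the only one of the 5 hairpins in which both arms were past the cutoffs, where miR-149-3p was not tested. Over all 138 hairpins with both arms tested, both were past them in the same direction in 9 and in opposite directions in 6.

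miR-423-3p had read counts of 592 and 928 in WT against 2251 and 4086 in TgAD neurons. The levels were 252 and 319 CPM in WT and 820.4 and 1016 CPM in TgAD. The 2 groups stood apart by more than the spread within either. The log2 fold change was 1.69 (standard error 0.22), within the error of that of miR-330-5p. Its partner miR-423-5p had 1376 and 1743 reads in WT and 1751 and 2346 in TgAD libraries, or 586 and 599 CPM against 638 and 583 CPM. These groups overlapped, with a log2 fold change of 0.045 (standard error 0.18) that became -0.21 with total counts as library size.

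miR-744-5p had read counts of 579 and 708 in WT against 1874 and 2976 in TgAD neurons. Its level was 246 and 243 CPM in WT and 683 and 740.0 CPM in TgAD, a log2 fold change of 1.54 (standard error 0.19). The WT libraries were nearly equal and lay far below both TgAD libraries. miR-744-3p had 33 and 36 reads in WT and 25 and 39 in TgAD libraries, or 14.05 and 12.4 CPM against 9.11 and 9.70 CPM. Both TgAD libraries lay below both WT libraries here, as in 161 of the 496 tested miRNA. The log2 fold change of -0.48 (standard error 0.31) was not past the cutoffs.

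miR-339-3p had 54 reads in each WT library and 125 and 156 in the TgAD libraries, or 23.0 and 18.5 CPM against 45.6 and 38.8 CPM. Of the 6 arms past the cutoffs it had the lowest level and the smallest log2 fold change, 1.02 (standard error 0.27). It was not past them with total counts as library size (0.77), without WT library 2 (0.86) or without TgAD library 1 (0.81). The other arm, miR-339-5p, had 309 and 460 reads in WT and 451 and 516 in TgAD libraries, or 132 and 158 CPM against 164 and 128 CPM. The groups overlapped, and the log2 fold change was 0.013 (standard error 0.23) and changed sign with total counts as library size, to -0.23.

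**Figure D1:**
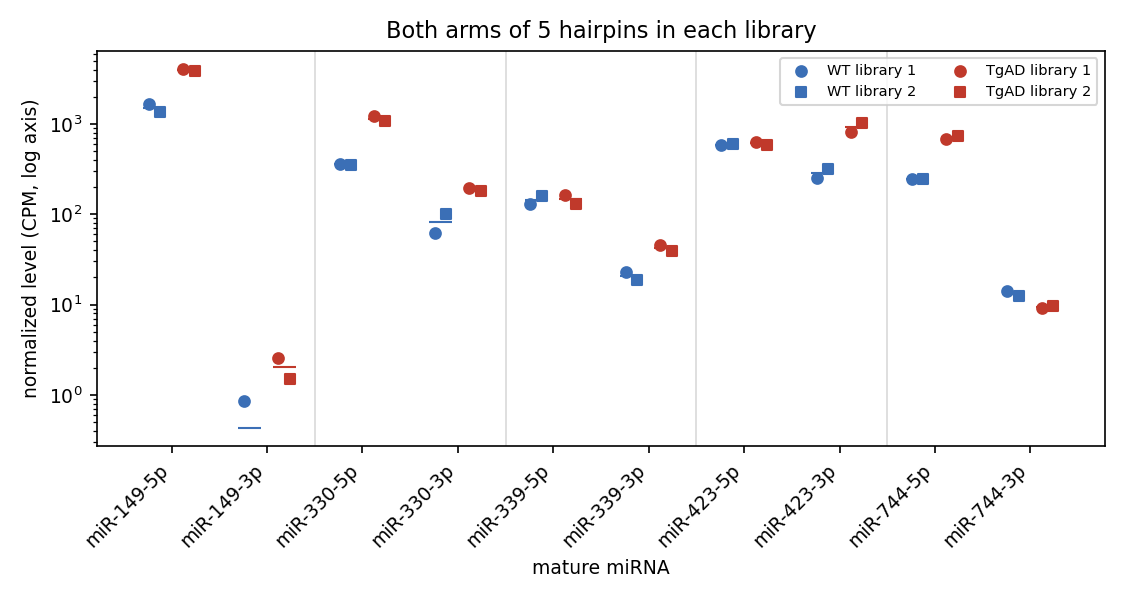
Level of the 10 arms in each library, in CPM on a log axis. Points are single libraries, circles for library 1 and squares for library 2, blue for WT and red for TgAD, and short lines are the means of 2 libraries; WT library 2 had 0 reads of miR-149-3p and has no point there. In miR-149-5p, miR-330-5p, miR-330-3p, miR-339-3p, miR-423-3p and miR-744-5p both red points lie above both blue points, while those of miR-339-5p and miR-423-5p overlap.

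The scale of the libraries moved these values together. miR-99a-5p, the most abundant miRNA, took 15.8% and 16.7% of the reads in WT and 26.98% and 31.8% in TgAD libraries. When libraries were scaled by their total counts instead, the median log2 fold change of all tested miRNA moved from 0.032 to -0.23 and that of the 9 arms from 1.22 to 0.98. The calls over all miRNA then split into 43 higher and 122 lower, against 78 and 86 with TMM, and 5 of the 9 arms stayed past the cutoffs.

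**Figure D2:**
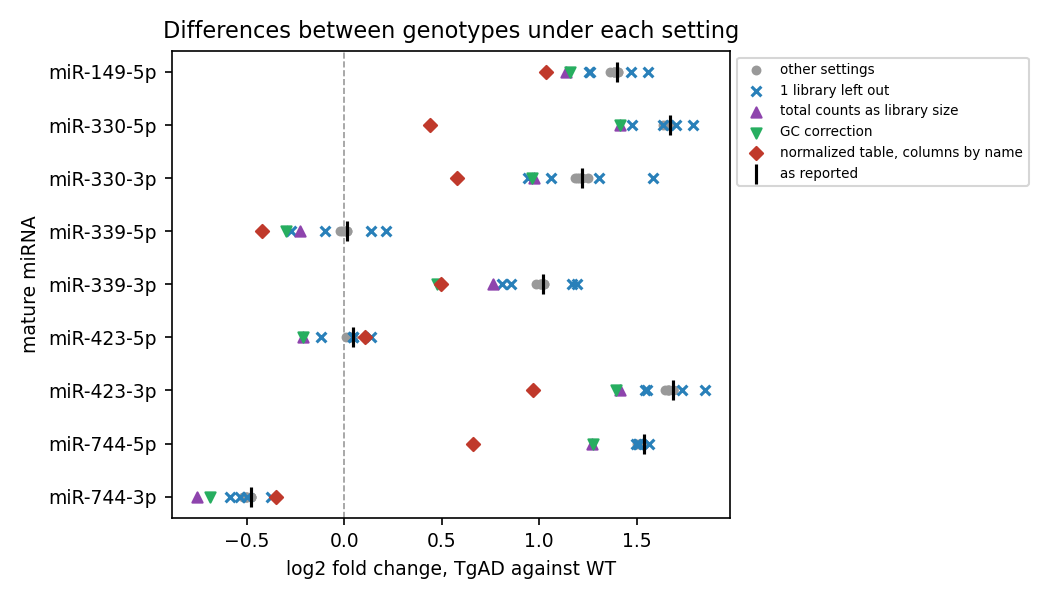
Log2 fold change, TgAD against WT, of the 9 tested arms under each setting tried. The black bar is the value as reported, and the other symbols are the alternatives, with the normalized table taken by column name as red diamonds. The 6 arms past the cutoffs stay above 0.47 with every setting of the count tables, and miR-330-5p is lowest with the normalized table, at 0.44.

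Which arm is the more abundant one in WT neurons is another comparison than the one that chose the hairpins. It was tested over 288 hairpins with both arms listed. For the 5 hairpins it is not independent of their choice, since the WT reads of a rising arm enter both. A low WT value favours the choice of an arm, and it raises the ratio of 5p to 3p where that arm is 3p, as in miR-339 and miR-423. The 5p arm was the more abundant in all 5 hairpins at a log2 ratio over 1 and an adjusted p under 0.05, against 41.7% of all hairpins tested (87.2% had a difference in either direction). In miR-744 the 5p reads were 18.5-fold the 3p reads in WT libraries, a log2 ratio of 4.21 (standard error 0.23, edgeR quasi-likelihood adjusted p = 1.99e-05). The ratio was 6.98 in miR-339, a log2 ratio of 2.80 (standard error 0.27, adjusted p = 0.000201 from the same edgeR test), and 4.51 in miR-330, a log2 ratio of 2.17 (standard error 0.24, adjusted p = 0.000397 from the same edgeR test). miR-423 had the most even arms, with a ratio of 2.09, a log2 ratio of 1.06 (standard error 0.21, adjusted p = 0.00441 from the same edgeR test). Without WT library 1 that log2 ratio was 0.91, below the cutoff of 1. In miR-149, 99.9% of the reads of WT library 1 and 100% of those of WT library 2 were 5p, and the lower 95% limit was 99.8% or more in both (Clopper-Pearson, counting error only). Read counts of sequences that differ were not calibrated against known amounts, so the ratio of the arms in a library is a ratio of reads.

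The share of the 5p arm was then set beside genotype. For miR-423 this share was 69.9% and 65.3% in WT, and 43.8% and 36.5% in TgAD. The 5p strand was thus the more abundant arm in both WT libraries and the 3p strand in both TgAD libraries. The 95% Clopper-Pearson intervals of the 4 libraries were 67.8% to 71.9% and 63.4% to 67.1% in WT, and 42.2% to 45.3% and 35.3% to 37.7% in TgAD. Libraries of the same genotype also differed by more than these intervals, which cover counting error alone. The mean log2 ratio of 5p to 3p moved from 1.06 to -0.58, a shift of -1.64, or 3.13-fold. Reads of both arms together moved less, from 877 ± 56.4 to 1529 ± 99.6 CPM (SD, n = 2 each).

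miR-744 shifted the opposite way. Its 5p share was 94.6% and 95.2% in WT and 98.7% in both TgAD libraries. The strand that was already the more abundant one took a larger share in TgAD neurons, with a shift of 2.02 in the log2 ratio, or 4.06-fold. The 3p side of this ratio rests on 25 to 39 reads per library. In miR-339 the 5p share was 85.1% and 89.5% in WT and 78.3% and 76.8% in TgAD libraries, a shift of -1.01, so that the 5p strand stayed the more abundant one. The WT libraries differed from each other here by 0.57 on the log2 scale, from 2.51 to 3.08.

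In miR-330 the 5p share was 85.3% and 78.0% in WT and 86.0% and 85.5% in TgAD libraries, so that both TgAD libraries lay above both WT libraries, though WT library 1 was close to them. Its shift of 0.41 was smaller than the spread between the WT libraries (SD 0.50) and was 0.76 without WT library 1 and 0.054 without WT library 2, whereas reads of both arms together moved 3.03-fold, from 439 ± 19.4 to 1329 ± 112 CPM (SD, n = 2 each). For miR-149 no shift is given, since its 3p reads were at the floor in WT. By the cutoffs both arms of miR-330 were past them, 1 arm of miR-744 (5p), miR-423 (3p) and miR-339 (3p), and the 1 tested arm of miR-149. For miR-339 the call of the 3p arm was lost in the settings named above.

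**Figure D3:**
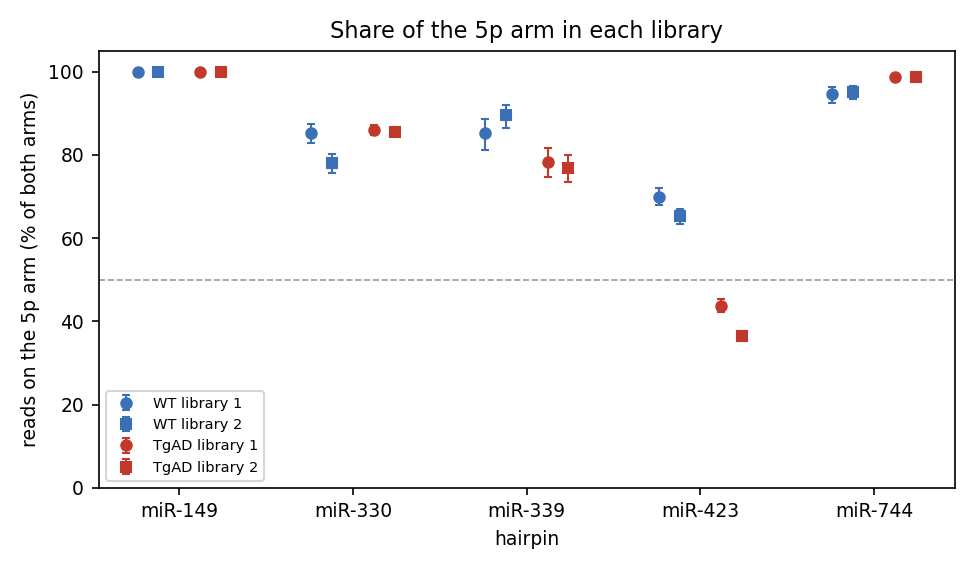
Reads on the 5p arm as a percentage of the reads of both arms, for each hairpin and library. Error bars are 95% Clopper-Pearson intervals, which cover counting error only, and the dashed line marks equal arms. miR-423 crosses that line between WT (65.3% and 69.9%) and TgAD (36.5% and 43.8%), while the 5p share of miR-330 in WT library 1 (85.3%) is close to those of the TgAD libraries (86.0% and 85.5%).

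Shifts of this size were common over all hairpins. Both arms were tested in 138 hairpins, in which the median size of the shift was 0.75, and 39.9% shifted by over 1 in size, as did 3 of the 4 hairpins with a value here. A shift at least as large as that of miR-744 was seen in 10 of the 138 hairpins, as large as that of miR-423 in 19 and as large as that of miR-339 in 53. In 63 of the 138 hairpins 1 arm alone was past the cutoffs for TgAD against WT, in 9 both arms in the same direction, and in 6 both arms in opposite directions. An exchange of the more abundant arm between genotypes, holding in every library, was seen in 3.62% of the 138, namely in miR-154, miR-325, miR-345, miR-423 and miR-450b. Apart from miR-423 these were named after their values were seen. Since miR-423 and miR-744 were picked on the same contrast, nothing is read from their place in this distribution.

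**Figure D4:**
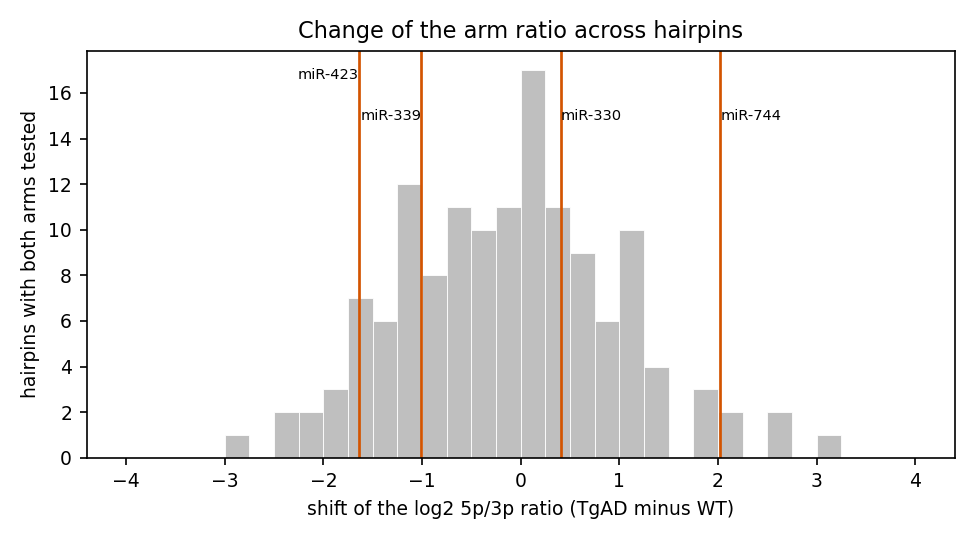
Shift of the log2 ratio of 5p to 3p reads, TgAD minus WT, over 138 hairpins with both arms tested, as a histogram with bins of 0.25. Orange lines mark miR-423 (-1.64), miR-339 (-1.01), miR-330 (0.41) and miR-744 (2.02), and 55 of the 138 hairpins lie beyond 1 in size.

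The arms are rich in G and C. Base composition was known when the hairpins were picked and is given as a description. Their GC content ranged from 50.0% in miR-744-3p to 81.8% in miR-149-3p with a median of 62.3%, and all 10 were above the median of 47.8% of the 441 tested miRNA with a sequence. Over 60% GC were 7 of the 10 arms, against 14.7% of the tested miRNA. A run of at least 4 G occurs in 3 arms, miR-149-3p, miR-423-5p and miR-744-5p, against 4.99% of the tested miRNA. The step CG occurs in 7 of the 10 arms and in 36.7% of the tested miRNA. U is the first base of 6 arms, against 40.8% of the tested miRNA. In miR-149, miR-330, miR-423 and miR-744 the 5p arm begins with U and the 3p arm does not, and it was the more abundant arm in WT. Over all hairpins in which 1 arm alone begins with U, that arm was the more abundant one in WT in 104 of 128. By A or U among the first 5 bases the arms of miR-330, miR-339 and miR-423 are equal. The 5p arm has more of them in miR-149 (2 against 1) and fewer in miR-744 (1 against 3). Where the arms of a hairpin differ in this count, the arm with more was the more abundant one in WT in 113 of 167.

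GC content moved with the difference between genotypes over all miRNA. The median log2 fold change was -0.76 over 75 tested miRNA under 40% GC, -0.13 over 157 from 40% to below 50%, 0.26 over 140 from 50% to below 60% and 0.32 over 69 at 60% and above. The share called higher in TgAD was 2.67%, 14.01%, 21.4% and 21.7% in the same order. Across these 441 miRNA Pearson's r was 0.35 and Spearman's rho 0.42, where all points come from the same 4 libraries and are not independent. Of the arms past the cutoffs, miR-330-5p was at 1.67 in the class from 50% to below 60%. The 5 in the highest class were between 1.02 and 1.69. The medians of these classes, 0.26 and 0.32, lie below the fold change cutoff, so an arm called higher had to lie above them. The arms were also chosen on this contrast, so nothing is read from their place above the medians. miR-339-5p, also in the highest class at 65.2% GC, was at 0.013.

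Correcting every library for its GC trend lowered the log2 fold change of the 9 arms by about the size of the trend, which was 0.21 to 0.55 at their GC content. After it miR-330-5p was at 1.42, miR-423-3p at 1.39, miR-744-5p at 1.28, miR-149-5p at 1.16 and miR-330-3p at 0.96, and these 5 stayed past the cutoffs. miR-339-3p, with 73.9% GC, fell to 0.48 and did not. The shift of the arm ratio after this correction was -1.60 for miR-423, 1.96 for miR-744 and -0.76 for miR-339.

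**Figure D5:**
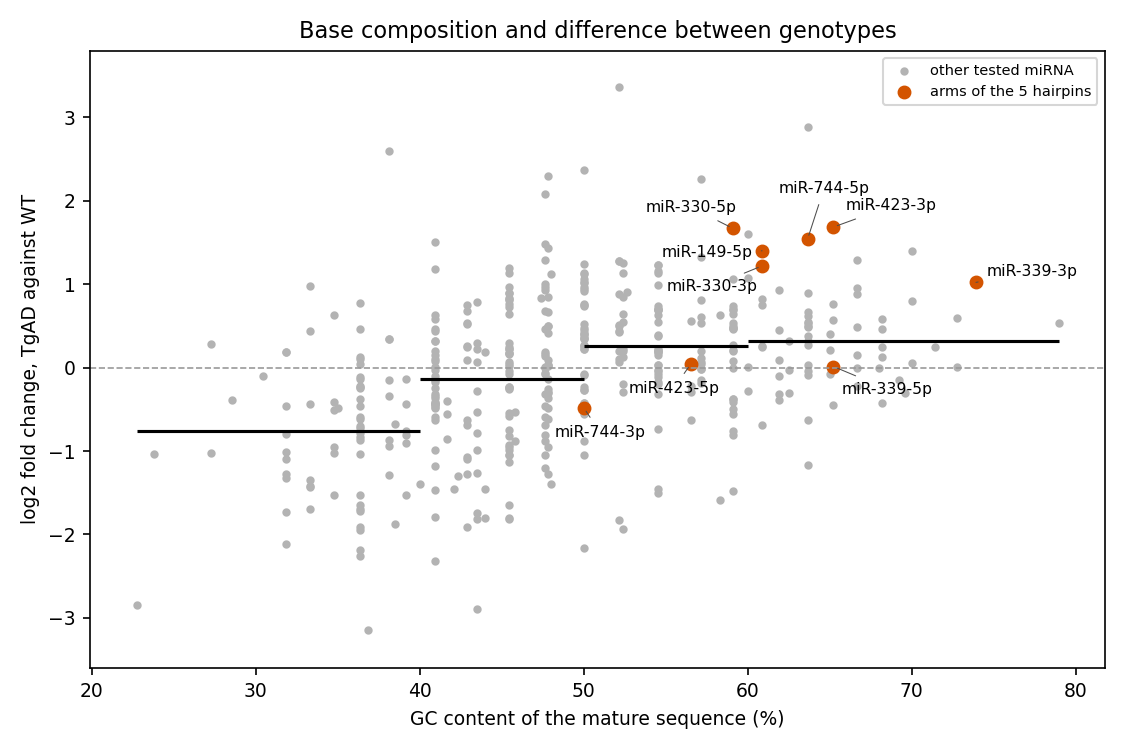
Log2 fold change, TgAD against WT, against the GC content of the mature sequence for 441 tested miRNA. Grey points are other miRNA, orange points the 9 tested arms, and black lines the medians of 4 classes of GC content (-0.76, -0.13, 0.26 and 0.32); 1 miRNA lies below the lower end of the axis at -3.6.

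Of the miRNA that share a seed with 1 of the 10 arms, miR-326-3p is the most abundant. It has the seed of miR-330-5p (CUCUGGG), and miRNA with a common seed can pair with the same sites in mRNA. miR-326-3p had 1035 and 933 reads in WT and 1057 and 1088 in TgAD libraries, or 441 and 320.4 CPM against 385 and 271 CPM. Its libraries overlapped, and its log2 fold change was -0.22 (standard error 0.26, edgeR quasi-likelihood adjusted p = 0.584). In the WT libraries the levels of miR-330-5p and miR-326-3p were alike, whereas in the TgAD libraries miR-330-5p was at 1212 and 1068 CPM. The sequence of this mate is shown beside that of the member.

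mmu-miR-330-5p: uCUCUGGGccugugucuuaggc
mmu-miR-326-3p: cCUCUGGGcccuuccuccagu

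The other seed mates had few reads. miR-1943-5p, with the seed of miR-149-3p, had 9 to 19 reads per library, and miR-7016-5p and miR-6967-5p, with the same seed, at most 6 and 0. miR-6240, with the seed of miR-330-3p, had 31 and 13 reads in WT and 36 and 13 in TgAD libraries. miR-6921-5p, with the seed of miR-423-5p, had 1 read in all. None of the 3 seed mates tested was past the cutoffs in edgeR.

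The profile over the 4 libraries was compared with the mean profile of 1 arm of each hairpin, the one with the higher mean over all 4 libraries, by the Euclidean distance of centred log2 CPM. For miR-423 this was the 3p arm, which was the less abundant one in WT, and for the others the 5p arm. The closest miRNA was miR-296-5p, at a distance of 0.081. It had 205 and 282 reads in WT and 619 and 912 in TgAD libraries, or 87.3 and 96.9 CPM against 226 and 227 CPM, and a GC content of 66.7%. Next were miR-18a-3p and miR-674-3p, at distances of 0.21 and 0.21 and with 54.5% and 50.0% GC. Profiles of 4 values carry little information, and these 3 are listed for their values alone.

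Markers of the cells in the culture were set beside these values. Of 6 neuronal miRNA, miR-128-3p took most of the summed level, which was 21123 and 35039 CPM in WT and 86105 and 62008 CPM in TgAD libraries, and it was the 1 of the 4 tested that was past the cutoffs, with a log2 fold change of 1.49. miR-138-5p had 3885 and 3566 reads in WT and 3330 and 2616 in TgAD libraries and a log2 fold change of -0.63, not past the cutoffs. miR-124-3p had 1 to 7 reads per library and miR-9-5p none, although both are abundant in neurons. Of the 18 markers 7 had no read, of which 4 overlap another miRNA hairpin and 3 have no position in the RefSeq table. Of the 11 with reads 3 overlap another hairpin and 3 have no position there, and 0 of the 10 arms overlap one. The oligodendrocyte and endothelial markers were at 0 in every library, so they say nothing of those cells. Myeloid markers summed to 9.96 to 10.2 CPM in WT and 13.9 to 14.7 CPM in TgAD. Those of red blood cells, almost all miR-451a, summed to 1310 and 1331 CPM in WT and 957 and 646 CPM in TgAD. Of these 3, miR-451a alone was tested, and it was past the cutoffs, lower. Markers of smooth muscle and pericytes summed to 718 to 901 CPM in WT and 756 to 827 CPM in TgAD, with 0 of 2 past the cutoffs (edgeR). The part of cell composition in the differences of the 10 arms was not tested, and in bulk RNA fewer cells of a type and less RNA per cell cannot be told apart.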

How the data were processed

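Small RNA of 2 WT and 2 TgAD cultures was sequenced with 50 bp reads. The authors mapped adapter-trimmed reads to GRCm38 with Bowtie2 without mismatch, counted them with HTSeq-count on a miRBase annotation, and deposited raw counts per mature miRNA. The authors also deposited a normalized signal, DESeq2 counts scaled by library size factors; 100% of its values were whole multiples of 1 read within 0.01 reads, and it was used in 1 alternative only. How reads with several placements were counted is not given in the sources used here.

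Counts were analyzed with edgeR 4.0.16 in R 4.3.3 (TMM, filterByExpr, quasi-likelihood test, genotype as the only factor). Arms were compared in a table of hairpins with library as a block and an arm by genotype term. Arm shifts used raw reads plus 0.5. A standard error is the log2 value over the square root of F. DESeq2 1.42.0 was an alternative. The GC correction used loess (span 0.75). Sequences for 1675 of the 1966 listed miRNA came from RefSeq. The procedures were tested on simulated data. The members, gene lists and tests were chosen with earlier results of these data known. Named miRNA were the members, their seed mates, the members beside the cutoff, the 3 closest profiles, miR-99a-5p and the marker lists. The depth per library is the total of counted reads.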

Additional observations from a re-analysis of the deposited data

How the results depend on the processing

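Beside the reported one, 14 settings were tried. With all libraries of the count tables kept, 5 or 6 of the tested arms were past the cutoffs in each setting. The arms tested were 9, or 10 with no filter on low counts and with DESeq2. With reads recovered from the normalized table with columns taken by name, an alternative chosen after seeing the data, 0 arms were past them in edgeR. The count over all miRNA was then 0 in place of 164. In that table the arm shift of miR-330 was -0.12 in place of 0.41, that of miR-423 -1.10 and that of miR-744 1.15; one column is named for the opposite genotype of the count table it holds and one holds another library, and the cause was not tested further. Over the settings of the count tables the log2 fold change ranged from 1.14 to 1.56 for miR-149-5p, from 1.42 to 1.79 for miR-330-5p, from 0.94 to 1.58 for miR-330-3p, from 0.48 to 1.20 for miR-339-3p, from 1.39 to 1.85 for miR-423-3p and from 1.27 to 1.56 for miR-744-5p. miR-339-3p was past the cutoffs in 9 of the 14 settings. Leaving out each library in turn gave 118 to 143 miRNA and 5 to 6 arms past the cutoffs, where a lone library was assumed to vary like the others. With the replicate number as a block 188 miRNA and 6 arms passed. Libraries of the same number share only that number, and the correlation of their deviations from the genotype means was 0.22, which with 2 libraries per genotype is the negative of the crossed one. The arm difference in WT was called in 251 hairpins, in 253 without the library as a block (no replicate block) and in 212 with DESeq2, and 4 or 5 of the 5 hairpins were called in every setting tried. miR-423 was the one not called without WT library 1 and with the normalized table. Depth limits miR-149-3p and miR-744-3p most, with at most 7 and 39 reads per library.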

Other observations

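The column TR_2 of the normalized table holds a library that is in none of the count tables. The hairpins were chosen with earlier results of these data known, so this library is no independent check. Its name puts it in the TgAD group, but 1 of the other 3 columns of that table is named for the opposite genotype of the count table it holds. The alternative with columns taken by name counted it as TgAD. No other group comparison was made with it. Recovered as whole reads, it had 968 reads of miR-423-5p and 1419 of miR-423-3p, a 5p share of 40.6%. The 5p share of miR-744 was 98.9%, from 957 and 11 reads, that of miR-330 was 83.8%, that of miR-339 was 61.3% and that of miR-149 was 99.95%. For miR-423 and miR-744 these shares lie beside those of the libraries labelled TgAD in the count tables (36.5% and 43.8%, and 98.7%) and outside those labelled WT (65.3% and 69.9%, and 94.6% and 95.2%). For miR-330 the share lies within the range of the libraries labelled WT (78.0% and 85.3%) and below both labelled TgAD (86.0% and 85.5%). For miR-339 the 3p share was larger than in any of the 4 count tables. On the scale of that table miR-149-5p was at 18646 in TR_2, against 4061 in the column that holds WT library 1 and 9784 and 9228 in those that hold the TgAD libraries. The values of miR-330-5p in the same order were 2532, 894, 2899.7 and 2547. With 1 library there is no test.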
